A study of Caenorhabditis elegans with 2 samples.

Results

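The 8 genes described here were grouped under the survival of the cephalic male (CEM) neurons and the cell death pathway in Caenorhabditis elegans. They are ceh-30, ceh-31, unc-86, tra-1, egl-1, ced-3, ced-4 and ced-9. They were taken by name from the 19973 protein-coding genes that the Ensembl annotation of WBcel235 places on the nuclear chromosomes. No measured value entered the rule, but earlier results of these data were known when the genes were chosen. The data are peak lists from chromatin immunoprecipitation and sequencing (ChIP-seq) of the homeodomain protein CEH-31, in 2 biological replicates that form 1 group. Both are whole late embryos of strain OP370, genotype unc-119(tm4063) III; wgIs370, labelled hermaphrodite and taken 5 h after the eggs had been bleached for synchronization. The integrated transgene wgIs370 supplies CEH-31 with green fluorescent protein (GFP) and FLAG at its C terminus, and the antibody was against GFP. All animals carry the same unc-119 mutation and transgene, so no group lacks the tagged protein.

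The CEM neurons are chemosensory neurons of the head that survive in males and undergo programmed cell death in hermaphrodite embryos. CEH-30 is a Bar-class homeodomain protein needed for their survival in males. In hermaphrodites ceh-30 is repressed by TRA-1, a zinc finger protein of the Gli family at the end of the sex determination pathway, and the POU homeodomain protein UNC-86 promotes its transcription. CEH-31, the protein pulled down here, is encoded by the neighbouring paralog of ceh-30. In the death pathway the BH3-only protein EGL-1 binds CED-9, a Bcl-2 relative on mitochondria, which frees the Apaf-1 relative CED-4 to activate the caspase CED-3.

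Each summit is the position of highest signal of a deposited peak, its signal is the authors' own score for that peak, on a scale that was not stated, and ranks count down from the highest signal in a list. The relaxed pooled list held 24555 peaks, and the optimal list, the peaks that passed the authors' threshold of the irreproducible discovery rate (IDR), held the 3697 of highest signal. The relaxed list of replicate 1 held 21175 peaks and that of replicate 2 held 22471. Optimal signals ran from 90.52 to 3594.5 with a median of 148.5. Peak lists hold no read counts, so depth is unknown, and a value here has no error beyond the 2 replicates set side by side. Embryos were used whole, so the cells in which a site was occupied cannot be told apart.

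CEH-31 summits were found near most of the 8 genes and in the promoter windows of a minority. An optimal summit lay in the promoter window, taken as 1000 bp before to 200 bp after the annotated gene start, in 2 of the 8 genes, unc-86 and ced-9. Over all protein-coding genes 11.5% had one. Within 20 kb of the gene on either side, 7 of the 8 had an optimal summit, against 67.7% of all genes, so neither count stands clear of that background, and tra-1 was the exception. A relaxed pooled summit lay in the promoter window of 3 of the 8 genes, unc-86, ced-3 and ced-9, against 33.5% of all genes. No optimal summit lay between the start and end of any of the 8 genes, and 4.51% of all genes had one there. A relaxed pooled summit lay there in 3 of the 8, ced-3, ced-9 and tra-1, against 32.6% of all genes.

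The 8 windows held 21 distinct optimal summits, 2 of them shared by ceh-30 and ceh-31, and 110 distinct relaxed pooled summits. The optimal signals ran from 93.21 to 533.6, with a median of 136.3, and 9 of the 21 lay above the median of the whole optimal list. By protein-coding gene models alone, 15 of the 21 were intergenic, against 67.9% of all 3697 optimal summits, and 5 were in introns, against 25.6%. The remaining 1 was in a 5′ UTR, against 4.14%, and none was in a coding exon, where 59 of all optimal summits lay. A promoter window of some protein-coding gene held 10 of the 21, against 1775 (48.0%) of all 3697 optimal summits. Most of these 10 were at neighbours of the 8 genes, as the accounts below show.

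**Figure D1:**
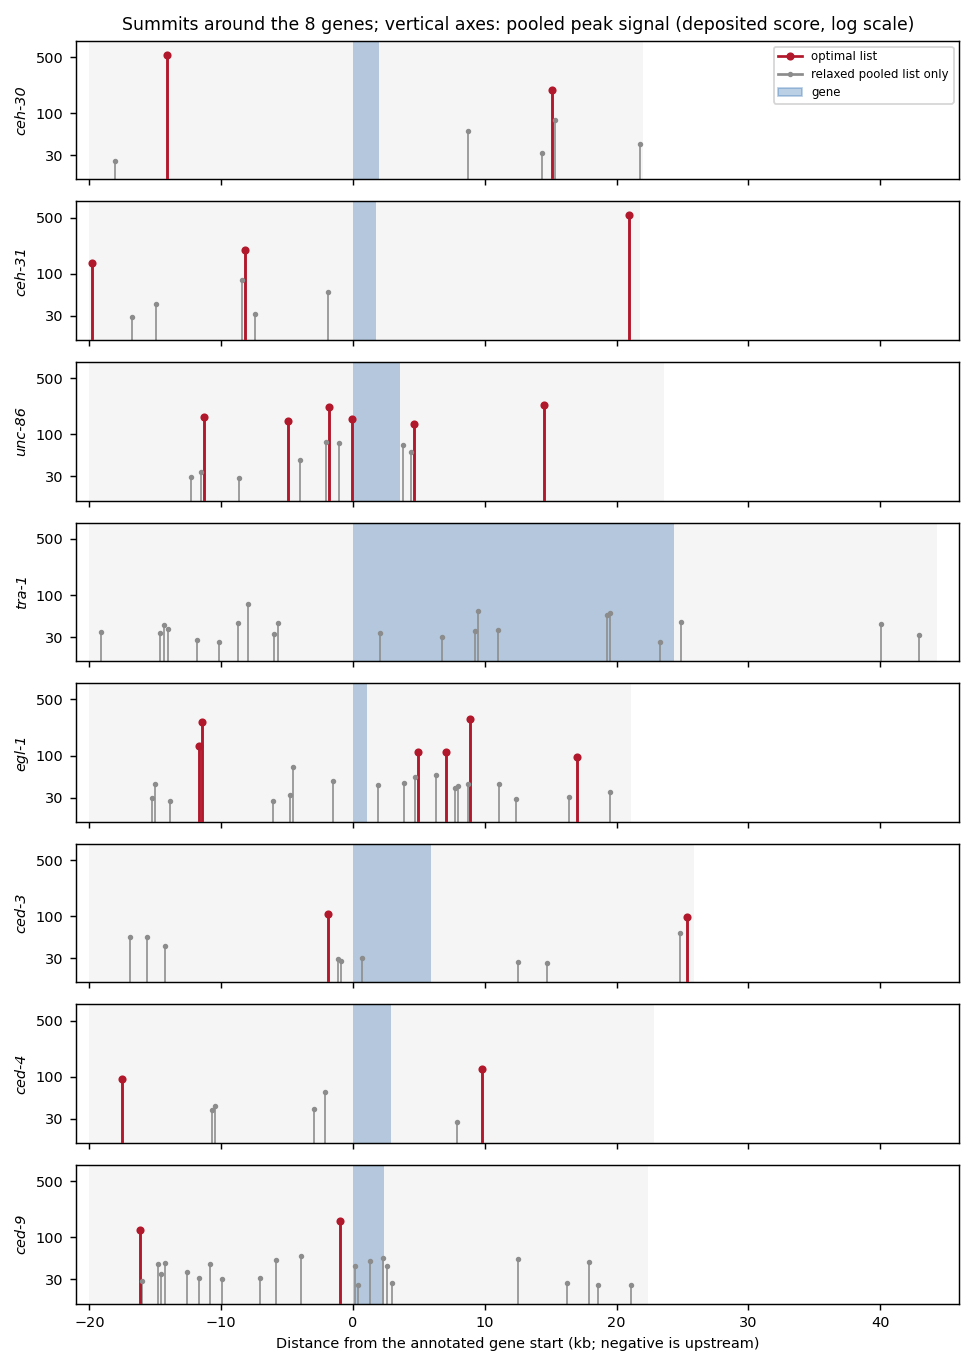
Summits within 20 kb of each of the 8 genes, by distance from the annotated gene start in kb on the horizontal axis and pooled peak signal on a log axis, with optimal summits in red, relaxed ones in grey, the gene in blue and its window shaded. The tallest optimal summit, at 533.6, stands 14120 bp upstream of ceh-30, the 21 summits of tra-1 are all grey, and no summit of either kind lies in or between ceh-30 and ceh-31.

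The ceh-30 and ceh-31 genes lie convergently on chromosome X (ceh-30, 3063574 to 3065551, plus strand; ceh-31, 3068648 to 3070422, minus strand), 3096 bp apart, each with 3 exons. Their window held the strongest summit near any of the 8 genes, far from both starts. The summit at 3049454 (peak 3049306 to 3049576) had a pooled signal of 533.6 and rank 86. Its signal was 270.1 in replicate 1 (rank 75) and 272.2 in replicate 2 (rank 93), so it was near the top of both lists. It lay in intergenic DNA, 14120 bp upstream of ceh-30 and 19194 bp past the end of ceh-31. The nearest start of a protein-coding gene was that of cnnm-3, a gene of the CNNM metal transporter family, and the summit was 3607 bp upstream of it.

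The other optimal summits lay on the ceh-31 side. The summit at 3078650 (peak 3078430 to 3078869) was 8228 bp upstream of ceh-31, the nearest optimal summit to that gene, with a signal of 196.1 pooled (rank 1148), 105.7 in replicate 1 (rank 938) and 92.62 in replicate 2 (rank 1400). The nearest start of a protein-coding gene there was that of twk-16, a two-pore potassium channel gene, and the summit was 2475 bp upstream of it. The summit at 3090204, 19782 bp upstream of ceh-31, lay in an intron of pccb-1, which encodes a subunit of propionyl-CoA carboxylase, and had a signal of 136.3. It ranked 1364 in replicate 1 and 3161 in replicate 2.

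The reference sequences of 101 bases around the 2 summits nearest to ceh-30 and ceh-31 are shown because they are the closest optimal sites to the gene of the tagged protein and its paralog. Both are on the plus strand of ce11 (chrX:3049404-3049504 and chrX:3078600-3078700), read from the RefSeq WBcel235 genome. Capitals mark GAGACGC in the first, a word discussed further on, and the summit base in the second.
ceh-30 side: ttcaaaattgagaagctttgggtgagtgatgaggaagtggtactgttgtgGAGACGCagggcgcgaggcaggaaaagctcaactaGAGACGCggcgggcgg
ceh-31 side: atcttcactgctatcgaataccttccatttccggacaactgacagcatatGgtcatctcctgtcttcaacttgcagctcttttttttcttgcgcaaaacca

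Between these sites the stretch that holds ceh-30 and ceh-31 had no summit in the relaxed pooled list. Neighbouring relaxed pooled summits at 3049454 and 3072301 were 22847 bp apart, a spacing reached by 600 of 24549 neighbouring pairs (2.44%) in the genome and by 91 of 4741 on X. These counts are of spacings, not of genes. A long spacing covers more DNA than a short one, so the share of genes in such stretches can be larger, and it was not counted. The median spacing was 1887 bp over the genome and 1895 bp on X. In replicate 1 the spacing around the 2 genes was 20911 bp, from 3057778 to 3078689. In replicate 2 it was 22928 bp, from 3049384 to 3072312. Both replicates therefore lacked a summit in both genes and between them. Of the 36-base words of the pooled stretch, 0.828% occurred elsewhere in the nuclear genome, against 10.7% over the whole ceh-30 window. The transgene carries the region of ceh-30 and ceh-31, and the sources used here do not give its ends, so the chromosomal and transgene copies cannot be told apart, and the part of the extra copies in these values was not tested.

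Nearest to the ceh-31 start was a relaxed summit 1879 bp upstream, with a pooled signal of 60.0 and rank 6628. It had a partner in replicate 2 (rank 6981) and none in replicate 1. The strongest relaxed summit outside the optimal list in both windows, at 3078874, had a signal of 83.19 and rank 4153. It lay 8452 bp upstream of ceh-31, beside the optimal summit at 3078650, and both were matched to the same replicate 1 peak. In all, the ceh-30 window held 2 optimal and 7 relaxed summits and the ceh-31 window 3 and 8, where the median gene on X had 2 and 11.

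At unc-86, which encodes a POU homeodomain protein that specifies many neurons, CEH-31 summits were numerous and 1 lay at the gene start. The gene (III, 8212740 to 8216336, minus strand) had 6 optimal summits in its window. Of 2640 genes on III, 104 (3.94%) had at least as many, and the median was 2. The summit at 8216440 (peak 8216220 to 8216659) was intergenic, 104 bp upstream of unc-86 and 18 bp upstream of the start of the noncoding RNA gene C30A5.11. Its signal was 155.4 pooled (rank 1731), 81.7 in replicate 1 (rank 1538) and 73.44 in replicate 2 (rank 2023). Over all genes, 2.15% had an optimal summit nearer to their start.

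The reference sequence around this summit (chrIII:8216390-8216490, plus strand, ce11) is shown as the only optimal summit within 500 bp of a start among the 8 genes. The capital marks the summit base, and neither GAGACGC nor the Bar-class cores described further on occur in it.
unc-86 start: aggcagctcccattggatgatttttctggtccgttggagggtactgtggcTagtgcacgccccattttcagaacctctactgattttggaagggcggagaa

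The other 5 optimal summits of unc-86 flanked it on both sides. Upstream, the summit at 8218186 was 1850 bp from unc-86 but 33 bp from the start of C30A5.16, with a signal of 216.9 pooled, 89.62 in replicate 1 and 128.4 in replicate 2. A summit at 8221250, 4914 bp upstream of unc-86, was in no promoter window and had a signal of 145.2. The summit at 8227657 (signal 164) was in an intron of rfs-1, a RAD-51 paralog, and 173 bp upstream of fbxl-1. These 3 therefore differed in what lay next to them, and only that at 8221250 had no gene start within 1000 bp among protein-coding genes.

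Downstream of unc-86, the summit at 8211711 lay 1029 bp past the gene end and 63 bp downstream of the start of the noncoding RNA gene C30A5.15. Its signal was 134.3 pooled, 65.35 in replicate 1 and 69.06 in replicate 2. The strongest summit in the window, at 8201886 with a signal of 229.6, was 669 bp upstream of unc-36, which encodes an auxiliary subunit of voltage-gated calcium channels. It ranked 673 in replicate 1 and 1223 in replicate 2. All 6 optimal summits of unc-86 ranked within the first 3697 of both replicates.

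tra-1 was the only one of the 8 genes with no optimal summit within 20 kb. The gene (III, 11170890 to 11195201, minus strand) is the longest of the 8 at 24312 bp, and its window of 64312 bp held 21 relaxed pooled summits, 8 of them inside the gene. Of the genes on III, 445 of 2640 (16.9%) had no optimal summit in their windows and 7.99% had at least 21 relaxed ones. These shares do not allow for the length of the windows, which grows with the gene. Per 10 kb of window, tra-1 had 3.27 relaxed summits, and the other genes described here ran from 1.63 for ced-4 to 5.85 for egl-1. The nearest optimal summit lay 41774 bp upstream, at 11236975 with a signal of 161.6, and 95.8% of genes on III had one nearer to their start.

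The relaxed summits of tra-1 were weak and uneven between replicates. The strongest, 7970 bp upstream at 11203171, had a pooled signal of 77.55 (rank 4527), below the 90.52 of the weakest optimal peak. It had a signal of 50.76 in replicate 1 (rank 3205) and 30.99 in replicate 2 (rank 7316), so replicate 1 alone would have placed it within its 3697 strongest. Inside the gene the strongest was in an intron at 11185756, 9445 bp from the start, with a signal of 63.47 and ranks of 4826 and 5156 in replicates 1 and 2. A pair at 11175696 and 11175898 (signals 60.43 and 56.7) lay in coding exons. Of the 21, 8 had a partner within 200 bp in both replicates.

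Around egl-1, which encodes the BH3-only trigger of the death pathway, optimal summits were as many as around unc-86, but none was near its start. The gene (V, 14431308 to 14432359, minus strand) had 6 optimal and 24 relaxed summits in its window. With summits within 300 bp of each other merged, egl-1 had 5 optimal summits and unc-86 still had 6. The shares of genes on V given next are of summits before merging. On V, where the median gene had 0 optimal and 5 relaxed ones, 73 of 4994 genes (1.46%) had at least 6 optimal summits and 35 (0.701%) at least 24 relaxed ones. The nearest optimal summit was 4927 bp downstream of the start and 3876 bp past the gene end, at 14427432 (peak 14427212 to 14427651). Its signal was 109.6 pooled (rank 2871), 41.94 in replicate 1 (rank 4307) and 69.31 in replicate 2 (rank 2198). The nearest start of another protein-coding gene was that of F23B12.1, and the summit was 1733 bp upstream of it.

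The sequence around this summit (chrV:14427382-14427482, plus strand, ce11) is shown because the intergenic DNA downstream of egl-1 is known to hold control elements for its expression. Capitals mark TAATTG, a core known for Bar-class homeodomains.
egl-1 downstream: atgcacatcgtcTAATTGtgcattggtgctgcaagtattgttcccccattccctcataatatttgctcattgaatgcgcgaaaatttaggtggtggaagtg

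The other optimal summits in the egl-1 window lay in promoter windows of other genes or in an intron. At 14423455 a summit with a signal of 287.3 pooled, 124.4 in replicate 1 and 164.2 in replicate 2 lay 151 bp upstream of rpoa-12, a gene for a subunit of RNA polymerase I, and 837 bp upstream of pas-1, a gene for a proteasome alpha subunit. Upstream of egl-1, summits at 14443822 (signal 258.8) and 14444021 (signal 132.2) were both in an intron of F23B12.4, 11463 and 11662 bp from the egl-1 start. The summit at 14425285 (signal 111.1) was 277 bp upstream of rrsr-1. That at 14415353 (signal 95.55) was 146 bp upstream of C15H11.11 and 339 bp upstream of nxf-1, the mRNA export receptor gene, and ranked 7570 in replicate 1 and 2245 in replicate 2, the widest split among the 21. In the promoter window and the gene body of egl-1 no relaxed summit was listed either.

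The caspase gene ced-3 (IV, 13198261 to 13204137, minus strand) had a weak optimal summit upstream, outside the promoter window. It lay at 13206073 (peak 13205853 to 13206292), 1936 bp from the start in intergenic DNA, and ced-3 was the protein-coding gene with the nearest start. The signal was 105.6 pooled (rank 3030), 52.28 in replicate 1 (rank 3062) and 46.96 in replicate 2 (rank 3866). Replicate 2 thus placed it just below its 3697 strongest. Over all genes, 17.1% had a nearer optimal summit. In the promoter window the only relaxed summit, 927 bp upstream, had a signal of 27.4 and rank 22012. The second optimal summit of the window, at 13178840 with a signal of 98.87, was 25297 bp from the ced-3 start in an intron of lev-1, which encodes a nicotinic acetylcholine receptor subunit. Without replicate 1 the window held 1 optimal summit, that in lev-1.

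At ced-4 (III, 4852325 to 4855171, plus strand), the Apaf-1 relative, no summit of either kind lay in the promoter window or in the gene. Its window held 2 optimal summits and 7 relaxed ones, where the median gene on III had 2 and 12. Without replicate 2 the optimal count was 1. The nearer optimal summit, 9808 bp downstream of the start at 4862133, had a signal of 126.4 pooled, 47.31 in replicate 1 and 77.49 in replicate 2. It lay between C35D10.5, 218 bp away, and C35D10.10, 339 bp away. The other, 17542 bp upstream at 4834783, had a signal of 93.21 and was the weakest of the 21. The nearest relaxed summit upstream of ced-4, at 2113 bp, had a signal of 64.99 and lay in the promoter windows of F26A1.1 and nonu-1.

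At ced-9 (III, 10335172 to 10337522, plus strand), the Bcl-2 relative that holds CED-4 inactive, the optimal summit in the promoter window was at the start of the gene before it. The summit at 10334176 (peak 10333956 to 10334395) was 996 bp upstream of ced-9, 101 bp upstream of mev-1 and 158 bp upstream of jmjd-4 on the other strand. Its signal was 160.7 pooled (rank 1648), 87.98 in replicate 1 (rank 1328) and 73.69 in replicate 2 (rank 2006). mev-1 encodes cytochrome b of succinate dehydrogenase (also named cyt-1), ends 3 bp before ced-9, and is known to be transcribed together with ced-9 as an operon, so the start of mev-1 is also where ced-9 transcription is known to begin. The distance of 996 bp is just inside the limit of 1000 bp, and the replicate 2 summit, 33 bp further from ced-9, was outside it.

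Inside ced-9 there were 4 relaxed summits, with signals from 25.4 to 55.8 and none in the optimal list. Its window held 24 relaxed summits, a number reached by 83 of 2640 genes on III (3.14%), but 2 optimal ones. The second optimal summit, at 10318992 with a signal of 123.8, lay in the 5′ UTR of unc-69, 53 bp inside the gene, and in the promoter windows of unc-50 and ostf-4. Without replicate 2 the optimal count of ced-9 was 1.

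The sequences around the summits upstream of ced-3 (chrIV:13206023-13206123) and ced-9 (chrIII:10334126-10334226), both plus strand in ce11, are shown because these are the nearest optimal summits to the caspase gene and to the ced-9 operon. Capitals mark GAGACGC.
ced-3 upstream: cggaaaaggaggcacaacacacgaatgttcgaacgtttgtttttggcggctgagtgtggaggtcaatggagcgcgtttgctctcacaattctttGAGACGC
ced-9 operon: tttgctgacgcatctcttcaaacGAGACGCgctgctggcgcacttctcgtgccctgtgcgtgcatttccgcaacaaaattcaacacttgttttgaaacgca

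In order of the distance from gene start to the nearest optimal summit, the genes ran unc-86 (104 bp), ced-9 (996 bp), ced-3 (1936 bp), egl-1 (4927 bp), ceh-31 (8228 bp), ced-4 (9808 bp), ceh-30 (14120 bp) and tra-1 (41774 bp). The median of the 8 was 6577.5 bp, against 11758 bp for all protein-coding genes, whose middle 50% lay between 3844 and 27877 bp. Only unc-86, ced-9 and ced-3 were below that range, tra-1 was above it, and the other 4 were inside. Chromosomes differed in this measure, with medians of 7351 bp on III, 9146 bp on X, 13084 bp on IV and 22672 bp on V. The distance of egl-1 is therefore short for V, where 18.0% of genes had a nearer summit, and that of ceh-30 is above the median for X.

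**Figure D2:**
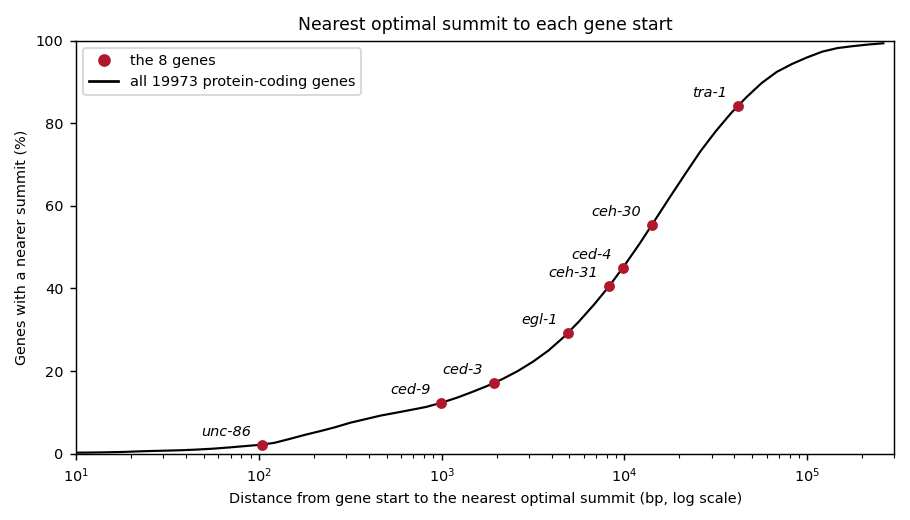
Percent of protein-coding genes with an optimal summit nearer than a given distance from their start, with the 8 genes as red points and all 19973 genes as a line; the horizontal axis is in bp on a log scale. The 8 genes are spread from 104 bp for unc-86 to 41774 bp for tra-1. A nearer summit is found for 2.15% of genes at the first distance and for 84.3% at the second.

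The replicates ranked the 21 optimal summits in similar places, with the spread growing toward the weaker ones. Each of the 21 had a partner within 200 bp in both replicates, and the largest distance to a replicate summit was 135 bp. Of the 21, 15 (71.4%) were among the 3697 strongest of both replicates and the other 6 of 1 replicate, against 2892 of 3697 (78.2%) among the strongest of both for the whole optimal list. All optimal peaks were selected by the authors from these same lists, so the counts describe a selected set. Of the 110 relaxed summits, 58 (52.7%) had a partner in both replicates, against 49.2% of all 24555 relaxed pooled summits, and 11 had none in either.

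**Figure D3:**
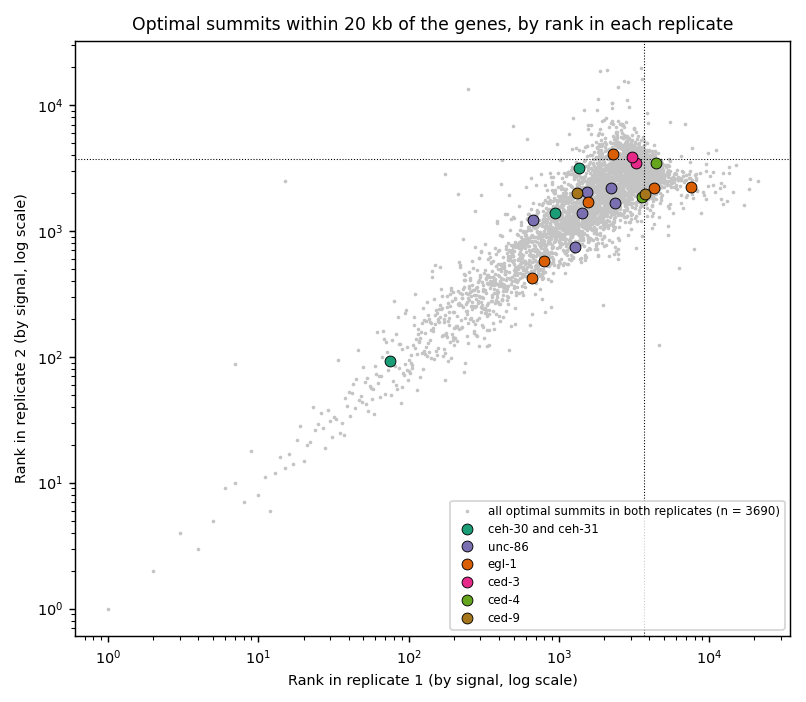
Rank by signal in replicate 1 (horizontal) and replicate 2 (vertical) of the 21 optimal summits within 20 kb of the 8 genes, coloured by gene, over all optimal summits with partners in both replicates in grey; both axes are logarithmic, and dotted lines mark rank 3697. The summit upstream of ceh-30 stands at ranks 75 and 93, and that upstream of C15H11.11 in the egl-1 window at 7570 and 2245.

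Cores known for Bar-class homeodomains were present at a minority of these sites, as over the whole optimal list. The motifs TAATTG and TAAACG were searched on both strands and can overlap each other by 2 letters. A window with both was counted 1 time. Of the 21 windows of 101 bp centred on a summit, 3 held either, against 310 of 3697 (8.39%) for all optimal summits. In windows of 201 bp the numbers were 6 of the 21 and 639 of 3697 (17.3%). Over all 24555 relaxed pooled summits the shares were higher, 10.0% in windows of 101 bp and 19.2% in windows of 201 bp. Windows beside the summits were not searched for these cores. The narrower windows with a match were those 3876 bp past the end of egl-1, printed above, in lev-1 and in unc-69. The summit 8228 bp upstream of ceh-31 had 3 matches to TAATTG in the wider window and none in the narrower one.

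Another word recurred in the printed sequences and was searched for after they had been read. GAGACGC, on either strand, was present within 101 bp windows at 4 of the 21 summits, those 14120 bp upstream of ceh-30, 1936 bp upstream of ced-3, at the mev-1 and ced-9 operon, and in unc-69. The first of these held it in 2 places, 1 of them starting at the summit base. Over all optimal summits it occurred in 437 of 3697 windows (11.8%), and in windows centred 1000 bp to either side in 64 of 7394 (0.866%). Over all relaxed pooled summits it occurred in 3.82%, and beside them in 1.06%. The word is rich in G and C, and the base composition of the windows to either side was not measured. The part of base composition in these differences was therefore not tested. In windows of 201 bp it was at 6 of the 21 and at 663 of 3697 (17.9%). Since the word was picked from these windows, their own count is a description only.

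The core TGGGTGGTC, and its variant TGGGAGGTC, are bound by TRA-1 and other Gli-family proteins, and both were searched on both strands in the 8 windows. Neither occurred between the start and end of ceh-30 or anywhere in the windows of egl-1, ced-4 and ced-9, which says only that these letters are not there. Only exact matches were counted, so a TRA-1 site that differs from them in any letter would be missed. The search therefore cannot show that ceh-30 or egl-1 lacks such a site. The ceh-30 window held TGGGTGGTC 1 time, in a coding exon of twk-16, and 15.5% of genome tiles of that length held it. Beside unc-86 the core TGGGAGGTC lay 284 bp past the gene end and 82 bp from a relaxed summit with a signal of 73.68, and 10.2% of tiles of that length held it. In the window of tra-1 itself there were 2 matches to the first core and 3 to the second, the nearest to a relaxed summit at 285 bp, and 22.5% and 14.8% of tiles of that length held them. The ced-3 window held TGGGTGGTC in 2 places, 3 and 20 bp from the optimal summit in the lev-1 intron, and 16.9% of tiles of that length held it.

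Genes that act beside these 8 carried promoter summits unevenly from 1 role to the next. Of 120 related genes in 7 lists, 22 (18.3%) had an optimal summit in the promoter window, against 11.5% of all protein-coding genes. Genes that specify which cells die had 9 of 24. The strongest was at lin-35, the worm retinoblastoma gene (signal 1206, rank 4), 249 bp upstream of it but nearer to vps-51. Next came eor-2 (signal 283.7, 163 bp upstream) and unc-37, the Groucho corepressor gene (247.5, 261 bp upstream). The other 6 were swsn-1, ceh-20, efl-1, pig-1, eor-1 and gcn-1, with signals from 95.44 to 229.5.

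Among 15 further regulators of the death machinery 4 had a promoter summit. They were the mitofusin gene fzo-1 (signal 600.3, 325 bp upstream), icd-1, a subunit of the nascent polypeptide-associated complex (305.9, 448 bp), cnt-1, which encodes an Arf GTPase-activating protein cleaved by CED-3 (181.9, 979 bp), and ced-8, which acts in the exposure of phosphatidylserine (117.5, 57 bp). The BH3-only gene ced-13, the p53 gene cep-1 and the caspase genes csp-1, csp-2 and csp-3 had none. Engulfment genes had 4 of 20, led by rab-7 (signal 927.4, nearer to W03C9.5), ced-5, the DOCK180 gene (353.4, 208 bp upstream), and rab-5 (287.4, 736 bp upstream). The fourth was unc-73 (178.2), and with a promoter window of 500 bp upstream to 100 bp downstream only 1 of the 20 was left. With the 1848 optimal peaks of highest signal, 1 of the 20 sex determination genes described next was left.

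Sex determination genes upstream of or beside tra-1 had 4 of 20. They were sdc-2, which triggers X chromosome dosage compensation (signal 211.1, 403 bp upstream), the F-box gene sel-10 (120.2, 162 bp), the zinc finger gene tra-4 (104.4, 30 bp) and sdc-1 (97.1, 337 bp). Genes of male ciliated sensory neurons, among them the polycystin genes lov-1 and pkd-2, had 1 of 19, the RFX factor gene daf-19 (272.4, 221 bp upstream). None of the 10 TRA-1 target genes and none of the 12 genes of DNA degradation in dying cells had an optimal promoter summit. These lists are small, genes that share a promoter region are not independent, and no list was tested.

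**Figure D4:**
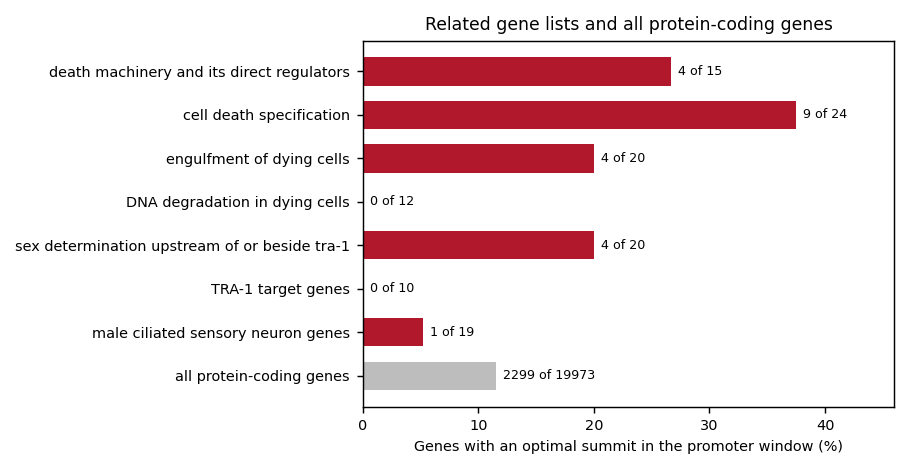
Percent of each related gene list, and of all protein-coding genes in grey at the bottom, with an optimal summit in the promoter window; labels give the number of genes with one and the number in the list. Genes of cell death specification stand highest at 37.5%, and the lists of TRA-1 targets and of DNA degradation stand at 0.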

How the data were processed

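Both replicates and the pooled lists were used in ce11 coordinates, which match the Ensembl release 115 annotation and the RefSeq genome of WBcel235; the ce10 lists were not used. Per the text deposited with the samples, the authors called relaxed lists per replicate and on pooled alignments, each against a control, and made the optimal list from these. The sources used here do not give the aligner, caller, versions or IDR threshold. The peak signal is a score the authors deposited, and ranks within each list were taken from it. The deposited −log10 q values were not used. Summit offsets, as the authors deposited them in bp, gave positions, written 1-based.

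Windows ran 20 kb to either side of a gene, and promoter windows from 1000 bp before to 200 bp after the annotated start. A replicate partner was the nearest summit within 200 bp. The code for distances, promoter windows and nearest summits, in Python 3.11.15, was tested on simulated data. That for placing summits in gene features was not. The 8 genes, the related lists and these settings were chosen with earlier results of these data known, and no test was run: 1 group of 2 samples offers no comparison between groups. Described summits were, per gene, the strongest and the nearest optimal summit and the strongest relaxed one in the promoter window or gene; 3 genes per list were named, and further ones were chosen after their values were seen. Of 122 list genes, 2 names matched no gene. Nothing in the labels says whether the replicates came from separate cultures.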

Additional observations from a re-analysis of the deposited data

How the results depend on the processing

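The count of genes with a promoter summit, 2 of the 8, was 1 with a promoter window of 500 bp upstream to 100 bp downstream, where only unc-86 was left, and 3 with 2000 to 500 bp, which added ced-3. Leaving out a replicate and taking the 3697 strongest peaks of the other gave 1 to 2, and without replicate 1 ced-9 was lost. The count with an optimal summit within 20 kb, 7 of the 8, was 4 with 5 kb on either side. Without replicate 2 it was 8, since tra-1 gained a summit 7970 bp upstream. The 21 summits around the genes became 110 with all relaxed pooled peaks, 9 with the 1848 optimal peaks of highest signal, 11 with 10 kb and 7 with 5 kb on either side. The 22 related genes with a promoter summit became 63 with all relaxed peaks. In all, 17 counts of this kind stayed within 1.5 times the reported number and 8 did not. For single genes and lists, 61 counts stayed within 1.5 times and 37 did not, mostly where relaxed peaks or narrower windows were used. No paired analysis was possible because both replicates belong to 1 group. Depth is unknown, so a missing summit does not show that CEH-31 was absent there.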

Other observations

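The gene whose mutation the transgene strain carries, unc-119 (III, 10902641 to 10908935, plus strand), had 1 optimal and 23 relaxed summits within 20 kb. The optimal summit lay inside the gene, 2611 bp downstream of its start, with a signal of 138.9 (rank 2060). Any copy of unc-119 on the transgene cannot be told apart from the chromosomal one.

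The base composition of the 21 optimal summits near the 8 genes was like that of the optimal list as a whole. The median G and C content of 101 bp windows was 47.5% (24.8% to 61.4%) over the 21, 48.5% over all 3697 optimal summits and 43.6% over the 24555 relaxed pooled summits. Short words that recur in the genome were unevenly spread, with 10.8% of the 36-base words of the ceh-31 window and 8.75% of those of the tra-1 window occurring elsewhere, against 1.06% for egl-1 and 1.71% for ced-4.

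The summit in the unc-36 promoter window was 266 bp downstream of the start of the noncoding RNA gene C50C3.15. That at fbxl-1 was beside the small nucleolar RNA gene C02F5.15.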
